A study of Mus musculus with 2 samples.

Results

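The cells described here were the cycling immune cells of the dermis of mice treated with imiquimod (IMQ), a TLR7 agonist cream that induces psoriasiform skin inflammation. They were selected on measured values of single-cell RNA-seq. A cell of the dermal library was kept if it had at least 200 genes and at most 10% mitochondrial UMIs (unique molecular identifiers, each standing for 1 captured transcript), at least 3 UMIs of Mki67 and Top2a together, and at least 2 UMIs of Ptprc, Tyrobp and Cd3e together. Cells with 20 or more UMIs of Krt5 and Krt14 per 10000, or of Col1a2, Pdgfra, Dcn and Lum per 10000, were left out. This gave 124 of the 5376 dermal barcodes, and of the 10634 barcodes of the series. The study profiled wild type C57BL/6 skin after 5 days of IMQ, labelled as 10 weeks of age, with 1 dermal library of live CD45+ enriched cells and 1 epidermal library of live cells. The dermal library held 41258087 UMIs (median 6086 per cell) and the epidermal library held 108768396 UMIs (median 16965 per cell, 5258 cells). With 1 library per tissue and no untreated library analysed here, no test between groups could be made. The intervals given are exact at 95% and reflect counting error alone, not the spread between mice. Those of ratios treat each UMI as a separate draw, so they leave out the spread between cells as well and are too narrow where cells are uneven. Of the cell barcodes, 45 were shared by both libraries.

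A dividing cell first copies its DNA in S phase, when the MCM helicase opens replication origins and histones are made to package the new strands. In G2 and mitosis (M) it builds a spindle, attaches chromosomes to it at the kinetochores, and separates them under the control of cyclin-dependent kinases and the anaphase-promoting complex. Skin macrophages and dermal T cells can renew themselves by local division, whereas neutrophils are end-stage cells whose precursors divide in the bone marrow.

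Mki67, which encodes the Ki-67 protein that coats mitotic chromosomes, and Top2a, which encodes the topoisomerase that untangles sister DNA, chose the members and are given as a description. Mki67 lies at chr7:135689784-135716361 and Top2a at chr11:98992943-99024189, both on the reverse strand (GRCm38, GENCODE M21). The members carried 3 to 39 UMIs of both genes together, with a median of 5.5. Mki67 was seen in 104 of the 124 cells and Top2a in 110. Just inside the threshold, 25 cells had 3 UMIs, and just outside it 67 cells had 2. The G2/M list of 52 genes, from which Mki67 and Top2a were left out, stood at 37.4 UMIs per 10000 in the cells with 3 and at 26.0 in the cells with 2, against 11.1 in the 3634 immune cells with 0. The S-phase list of 43 genes stood at 22.02, 14.6 and 4.28 UMIs per 10000 in the same order. Both lists thus fell stepwise across the threshold, with no clear gap between them.

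A pair of further marker genes was not part of the rule. Pimreg, a mitotic regulator at chr11:72042032-72047370 on the forward strand, was seen in 54 of 124 members (43.5%) and in 20 of 3634 non-cycling immune cells (0.550%). Prr11, at chr11:87089153-87108708 on the reverse strand and needed for cell-cycle progression, was seen in 38 members (30.6%) and in 11 non-cycling cells (0.303%). The members had a median of 19550.5 UMIs (1894 to 61133), against 6479.5 in the non-cycling cells, so shares of cells with a UMI are not on equal depth, and levels in counts per 1e+06 UMIs (CPM) are used below. At that scale Pimreg stood at 47.5 CPM in members and 0.723 CPM in non-cycling cells, a ratio of 65.7 (40.8 to 111).

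The immune label of the members was checked against lineage markers. Cells were put in classes by marker levels, in a fixed order, with levels chosen after values were seen. C1q-high cells carry the complement genes C1qa, C1qb and C1qc that mark tissue macrophages, T cells carry CD3 and T cell receptor constant genes, and MHC II-high cells carry the class II genes that antigen-presenting cells use without high C1q. Of the 124 members, 56 were C1q-high (45.2%, interval 36.2 to 54.3%), 28 were T cells (22.6%, 15.6 to 31.0%), 19 were MHC II-high (15.3%, 9.48 to 22.9%), 14 met no gate, 4 were endothelial and 3 were monocytes by Ly6c2, Chil3 and Plac8. Clusters were also made without cell-cycle genes, meaning those on the gene lists used here, Mki67, Top2a and histone genes. Cycle genes on no list were not taken out. By these clusters instead of gates, C1q-high cells made up 61.3% and MHC II-high cells 8.87% of the members. C1q genes stood at a median of 55.5 UMIs per 10000 in the C1q-high members (15.8 to 160) and at 1.82 in the T members (0 to 25.7). T cell genes stood at 24.2 (3.96 to 90.9) in the T members and at 0.470 (0 to 1.58) in the C1q-high members, a separation that the order of the gates fixes.

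**Figure D1:**
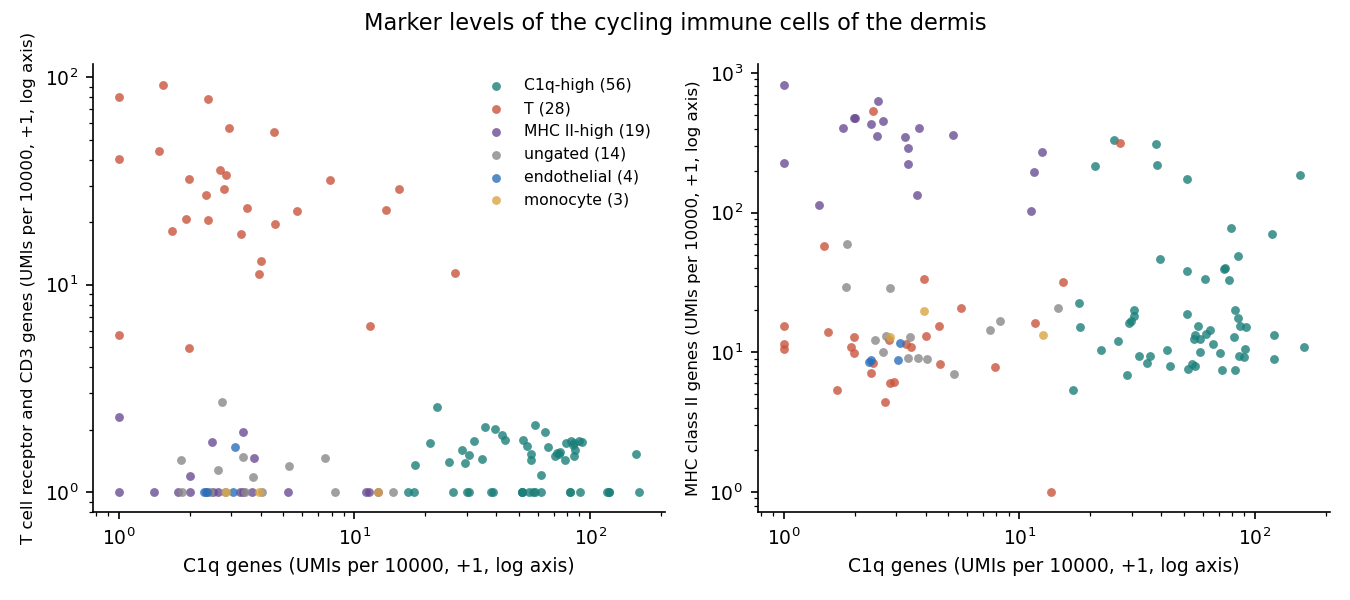
Each point is 1 of the 124 members. Left, T cell gene UMIs per 10000 against C1q UMIs per 10000, and right, MHC class II UMIs per 10000 against C1q UMIs per 10000, all plus 1 on log axes. The C1q-high and T members lie apart, as the gates set, 6 C1q-high members also carry at least 100 MHC class II UMIs per 10000, and 1 T member carries C1q above the C1q-high limit.

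The 4 endothelial members went against the label. They carried 10 to 46 UMIs of Pecam1, a junction protein of vessels, and 43 to 152 UMIs of Plvap, a protein of endothelial diaphragms, while Ptprc, which encodes CD45, had 2 UMIs over the 4 cells and Cd3e none. They met the rule through Tyrobp, with 6 to 22 UMIs each, at 1.95 to 4.07 per 10000. The median of Tyrobp was 20.3 in the C1q-high members but 4.37 (0 to 24.4) in the T members. Without them there were 120 members. The 14 members that met no gate carried Tyrobp, an adaptor of myeloid receptors and a gene of the rule, at 8 to 89 UMIs in every cell. Csf1r, which the rule did not use, was seen in 12 of 14, with a median of 2.5 UMIs at a median depth of 22583.5 UMIs. Lpl, which encodes lipoprotein lipase, was seen in 11 of them (190 UMIs), against 3 of 28 T members. Acp5, which encodes an acid phosphatase of osteoclasts and macrophages, was seen in 11 (319 UMIs), and Ctsk, which encodes cathepsin K, in 9 (116 UMIs). No share in another class is set beside Csf1r, Acp5 or Ctsk. When cells were clustered without cell-cycle genes, 13 of these 14 fell in C1q-high clusters.

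Cycling cells were spread unevenly over the immune classes of the dermis. Over all 4153 immune cells, 124 were cycling (2.99%, 2.49 to 3.55%). The share was 7.87% (5.29 to 11.2%) in T cells, 28 of 356, and 6.52% (4.96 to 8.38%) in C1q-high cells, 56 of 859, and the intervals overlapped. In MHC II-high cells it was 3.78% (2.29 to 5.84%, 19 of 503) and in monocytes 0.378% (0.0781 to 1.10%, 3 of 793). None of 716 neutrophils met the rule, which allows a share of up to 0.419% by 3 counts (exact upper limit 0.514%). Nor did any of 351 mast cells and basophils (0.855% by 3 counts, exact limit 1.05%) or of 34 NK cells (8.82% by 3 counts, exact limit 10.3%). The median depth was 3789 UMIs in mast cells and basophils, 4020 in neutrophils, 7080.5 in T cells, 8810 in monocytes, 9134 in C1q-high cells and 9883 in MHC II-high cells, which sets what 3 UMIs can detect.

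The order was therefore also read with every cell thinned to 2000 UMIs and at least 1 Mki67 or Top2a UMI counted, a reading added after the data were seen, and 313 of the 4153 cells were too shallow to enter. T cells then stood at 10.3% (7.30 to 14.1%), C1q-high cells at 6.02% (4.504 to 7.87%) and MHC II-high cells at 4.45% (2.81 to 6.67%). Neutrophils stood at 1.66% (0.801 to 3.04%) and monocytes at 1.68% (0.896 to 2.85%). Whether these UMIs are background was not tested, and 3 monocytes but no neutrophil met the rule of 3 UMIs. NK cells had 3 of 34 (8.82%, 1.86 to 23.7%). The sums of the S-phase and G2/M lists over all cells of a class, which need no threshold, gave 1095 and 2189 CPM in T cells, 770 and 1785 CPM in C1q-high cells, 365 and 1124 CPM in monocytes, and 276 and 1334 CPM in neutrophils. On both scales T cells and C1q-high cells stood above monocytes and neutrophils, but mast cells and basophils, without a member, had 706 and 1962 CPM of the lists, above C1q-high cells for G2/M genes. In their non-cycling cells 1 gene, Cks2, held 1076 of the 2571 G2/M UMIs, and after thinning 3 of 267 (1.12%) had a Mki67 or Top2a UMI. NK cells had 832 and 1196 CPM.

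**Figure D2:**
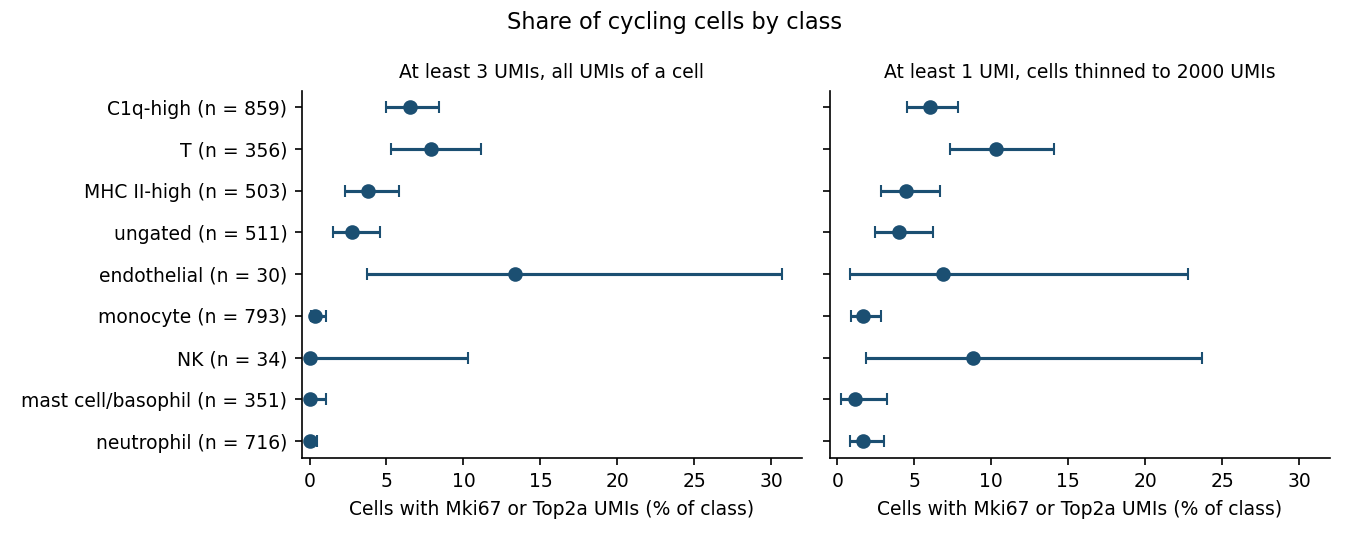
Percent of cells of each class with Mki67 or Top2a UMIs, as points with exact 95% intervals. The left panel uses the rule of 3 UMIs, the right panel 1 UMI after thinning each cell to 2000 UMIs. T cells and C1q-high cells stand above monocytes and neutrophils in both panels.

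Within the classes, clusters made without the listed cell-cycle genes held cycling cells at different shares, and 5 of the 22 clusters held 108 of the 124 members. Cycle genes on no list, such as Pclaf (described below), were not taken out. Whether they shaped the clusters was not tested, so these shares need not be free of cycle signal. Among the macrophage clusters, the one led by Cd209f, Marco, Cxcl13, Cbr2, Ednrb and Cd163 had 17 cycling cells of 112 (15.2%, 9.10 to 23.2%), and the one led by Lpl, Acp5, Tk1, Slamf9, Ctsk and Clec4b1 had 43 of 357 (12.0%, 8.86 to 15.9%). Tk1 is itself a gene of nucleotide synthesis that rises in S phase and was not used to cluster. The cluster led by Pf4, Fcrls, Ms4a7, Ccl8, Selenop and C1qa had 14 of 307 (4.56%, 2.52 to 7.53%). In contrast, the cluster led by Nrg1, Rab7b, Gm20703, Ccl2, Sdc4 and Tgfbi had 2 of 470 (0.426%, 0.0516 to 1.53%). Median depths were 13121.5, 10777, 8871 and 6522.5 UMIs in that order. Among the T cell clusters, the one led by Il17f, Il17a, Trdc, Cd163l1, Il22 and Gm26614 had 23 of 206 (11.2%, 7.21 to 16.3%) at a median of 9731 UMIs. The one led by Tnfrsf4, Klrg1, Cd5, Cd28, Ctla4 and Trac had 2 of 79 (2.53%, 0.308 to 8.85%) at 5192 UMIs. Another, led by Ctla2a, Ramp3, Il7r, Tnfrsf18, Ptprcap and Lmo4, had 2 of 46 (4.35%, 0.531 to 14.8%) at 3962.5 UMIs. The intervals of these T cell clusters overlapped.

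Cycling T cells carried genes of γδ and of type 17 T cells. Type 17 cells secrete IL-17 and IL-22, the cytokines that drive keratinocytes in psoriasiform skin, and dermal γδ T cells are a known source. At least 2 UMIs of Trdc, the constant gene of the δ chain, were found in 13 of 28 cycling T cells (46.4%, 27.5 to 66.1%), in 77 of 265 non-cycling T cells (29.1%) and in 0 of the 56 cycling C1q-high cells. Median depths were 19936.5 and 6019 UMIs in cycling and non-cycling T cells, so these shares are not on equal depth, and in CPM Trdc stood at 436 and 478. At least 2 UMIs of Trac, the α chain, were found in 8 of 28 (28.6%) and in 79 of 265 (29.8%). Trdc and Trac are genes of the T gate, which came before the C1q gate. The 0 of 56 for Trdc was therefore fixed in part. Foxp3, the regulatory T cell factor, was seen in 3 of 28 cells and Cd8a in 2 of 28.

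The cytokine transcripts were spread unevenly over these 28 cells. Il17a had 940 UMIs in 12 cells, of which 739 (78.6%) were in 1 cell. Il17f had 1234 UMIs in 17 cells, with 557 in the richest, and Il22 had 737 UMIs in 20 cells, with 178 in the richest. These transcripts were also found outside T cells, since 6 of the 56 cycling C1q-high cells had an Il17a UMI, 13 an Il17f UMI and 19 an Il22 UMI, so a single UMI does not mark a producer. Il13, a type 2 cytokine, had 77 UMIs in 2 cells, of which 66 were in 1 cell. Of the 66 Gzma UMIs, the transcript of granzyme A, 63 were in 1 cell. Il17a, Il13 and Gzma levels of the group thus followed 1 cell each, whereas Il22 was spread over more cells, with a median of 7.5 UMIs.

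Genes of the cell cycle were then compared between cycling and non-cycling cells. A gene had to reach 20 UMIs in the compared cells together, and genes that did (the genes tested below) were compared as log2 ratios of CPM with a pseudocount of 0.5 UMI, a gene is called at a 2-fold difference, and the rule's own genes are left out. Since Mki67 and Top2a chose the groups, the rise of other cycle genes is a description of the members. Over all immune classes, 12298 genes were tested, 1697 (13.8%) were at least 2-fold higher in the members and 1243 (10.1%) at least 2-fold lower, with a median log2 ratio of 0.15. Without the 4 endothelial members these were 1464 and 1313 genes. The highest ratios were those of Nusap1, a microtubule-binding protein of the spindle (85.8 against 1.05 CPM, 81.9-fold, interval 55.5 to 125), Pbk, Esco2, Pimreg, Kif11, Plk1, Ccna2, Kif4, Cenpf and Knl1, all genes of replication or mitosis. The lowest were mostly genes of cell types with few or no members, namely Prss34, a basophil protease, Grm6 and Mcpt1 of basophils and mast cells, Padi4 and Mrgpra2b of neutrophils, Hbb-bt and Hba-a2 of red cells, Mmrn1 of lymphatic vessels and Myl9 of mural cells. Apoc1, an apolipoprotein gene, was among them too. In 1 non-cycling cell each lay 1787 of the 1851 Hbb-bt UMIs, 3072 of the 3172 Hba-a2 UMIs, 127 of the 149 Myl9 UMIs and 95 of the 142 Mcpt1 UMIs. This comparison mixes classes, so cycling was next read within a class.

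In C1q-high cells (56 cycling against 678 non-cycling), 9348 genes were tested, 827 (8.85%) were at least 2-fold higher and 636 (6.8%) at least 2-fold lower in the cycling cells, with a median log2 ratio of 0.07. In T cells (28 against 265), 414 of 7316 genes (5.66%) were higher and 638 (8.72%) lower, with a median of -0.02. Against only the non-cycling T cells of at least 10000 UMIs, 369 were higher and 186 lower, so the balance of these counts turned. In MHC II-high cells (19 against 421), 1173 of 8327 (14.1%) were higher and 805 (9.67%) lower, with a median of 0.18.

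Genes of DNA replication were higher in all 3 classes. A gene could reach 20 UMIs through the cycling cells alone, so the counts of cycle genes tested describe the members and support nothing further. Of the genes that license and fire origins, 16 of 16 tested were at least 2-fold higher in C1q-high cells (median log2 ratio 2.21), 12 of 13 in T cells (1.93) and 10 of 12 in MHC II-high cells (2.45). Mcm5, a subunit of the MCM helicase, stood at 62.7 CPM in cycling and 12.0 CPM in non-cycling C1q-high cells (5.22-fold, 3.72 to 7.30), and at 63.5 and 18.5 CPM in T cells (3.43-fold, 2.11 to 5.58). Of genes of the fork and chromatin assembly, 24 of 24 were higher in C1q-high cells, 16 of 21 in T cells and 20 of 21 in MHC II-high cells. Pclaf, which was on no list and binds the PCNA clamp at the fork, stood at 339 against 12.5 CPM in C1q-high cells (27.2-fold, 21.3 to 35.0) and at 388 against 10.0 CPM in T cells (38.8-fold, 24.5 to 64.8). Rrm2, the subunit of ribonucleotide reductase that makes deoxynucleotides, had a ratio of 49.7 (27.0 to 102) in T cells. Of the histone genes, 13 of 16, 10 of 13 and 9 of 11 were higher in the 3 classes, and Hist1h2ap stood at 906 against 21.5 CPM in C1q-high cells.

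Genes of mitosis, the stage closest to the genes of the rule, were higher as well. Of the 28 genes of the centromere, kinetochore and checkpoint, those that reached 20 UMIs were at least 2-fold higher, 27 of 27 in C1q-high cells (median log2 ratio 3.64), 15 of 15 in T cells (3.09) and 17 of 17 in MHC II-high cells (4.67). So were 23 of 23, 16 of 16 and 14 of 14 genes of the spindle and its motors, with medians of 4.65, 3.83 and 4.79. In C1q-high cells, Nusap1 stood at 90.1 against 0.937 CPM (96.2-fold, 42.7 to 268), Plk1, the polo kinase that starts mitosis, at 60.1 against 0.781 CPM (76.9-fold, 31.4 to 245), and Prc1, which bundles the spindle midzone, at 76.0 against 1.09 CPM (69.5-fold, 32.3 to 178). Pbk, Dlgap5, Pimreg, Spc25, Cenpf, Hist1h2ap and Ccna2 made up the rest of the 10 highest. In T cells the 10 highest were Hist1h1b, Nusap1, Hist1h2ap, Rrm2, Ccna2, Cdca3, Pclaf, Ube2c, Cdk1 and Hist1h2ae. Ube2c, the ubiquitin-conjugating enzyme of the anaphase-promoting complex, stood at 406 against 14.7 CPM in C1q-high cells, at 467 against 12.5 CPM in T cells and at 510 against 5.37 CPM in MHC II-high cells. Of the 95 genes of the S-phase and G2/M lists, 56 had enough UMIs in all 3 classes, and 45 of these were at least 2-fold higher in all 3.

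The promoters of these genes are shown because genes that move together with the cycle share short sequence elements. RefSeq promoters (GRCm38.p6, 250 bases before to 50 after the start of transcription) were found for 47 of the 54 genes of the whole G2/M list (52 promoters) and for 31 of 43 S-phase genes (34 promoters). The letters TTTGAA, read on both strands, are those of the cell-cycle genes homology region (CHR), and CCAAT those of the CCAAT box. TTTGAA was in 34 of 52 G2/M promoters (65.4%), in 6 of 34 S-phase promoters (17.6%) and in 17.9% of all 32851 promoters. The origin list lay between, with 6 of 16 (37.5%). Of the 45 matches in G2/M promoters, 30 (66.7%) lay within 50 bases of the start, against 25.3% of matches in all promoters. CCAAT was in 75% of G2/M, 67.6% of S-phase and 37.4% of all promoters. GCGGGAA, a form of the E2F element, was in 1 of 52 G2/M promoters (1.92%), in 14 of 34 S-phase promoters (41.2%) and in 4.6% of all promoters. It was also in 5 of 27 promoters of kinetochore genes (18.5%). A second form, TTGGCGC, was in 13.5%, 17.6% and 2.45%. A match is a description of the letters, not of binding. Ube2c of the G2/M list is printed with Plk1 of the spindle list and Prr11 of the cytokinesis list, which were outside the G2/M list, with TTTGAA and CCAAT in capitals on either strand, and 2 CCAAT matches of Ube2c, on opposite strands, overlap. Mcm3 of the origin list and Pclaf, both outside the S-phase list, are printed as replication genes, with GCGGGAA and TTGGCGC in capitals on either strand, and the 2 TTGGCGC matches of Mcm3 overlap. All are written along the gene's own strand.
Prr11, chr11:87108665-87108964, reverse strand: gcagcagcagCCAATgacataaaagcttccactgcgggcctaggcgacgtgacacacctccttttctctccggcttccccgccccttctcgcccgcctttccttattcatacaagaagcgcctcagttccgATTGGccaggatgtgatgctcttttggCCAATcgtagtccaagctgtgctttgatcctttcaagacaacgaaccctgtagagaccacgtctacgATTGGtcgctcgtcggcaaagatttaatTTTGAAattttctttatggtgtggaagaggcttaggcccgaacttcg
Plk1, chr7:122159185-122159484, forward strand: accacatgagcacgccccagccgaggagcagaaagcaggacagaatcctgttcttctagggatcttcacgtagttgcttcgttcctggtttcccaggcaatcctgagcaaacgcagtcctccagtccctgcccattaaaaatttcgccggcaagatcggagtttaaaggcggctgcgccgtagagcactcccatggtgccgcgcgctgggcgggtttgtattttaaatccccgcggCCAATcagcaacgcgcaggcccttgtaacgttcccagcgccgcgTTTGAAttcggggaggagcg
Ube2c, chr2:164769679-164769978, forward strand: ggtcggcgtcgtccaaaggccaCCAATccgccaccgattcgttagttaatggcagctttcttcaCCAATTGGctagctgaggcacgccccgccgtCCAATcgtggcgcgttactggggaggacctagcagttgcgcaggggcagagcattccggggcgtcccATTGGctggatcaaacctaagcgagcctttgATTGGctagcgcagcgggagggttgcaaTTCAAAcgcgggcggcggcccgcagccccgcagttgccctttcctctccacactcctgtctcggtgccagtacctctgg
Mcm3, chr1:20820263-20820562, reverse strand: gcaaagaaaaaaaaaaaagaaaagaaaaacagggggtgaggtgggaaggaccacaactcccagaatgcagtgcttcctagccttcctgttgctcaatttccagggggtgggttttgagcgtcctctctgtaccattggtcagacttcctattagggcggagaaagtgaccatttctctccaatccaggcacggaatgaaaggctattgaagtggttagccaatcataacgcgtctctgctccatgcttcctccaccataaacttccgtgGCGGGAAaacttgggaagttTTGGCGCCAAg
Pclaf, chr9:65890073-65890372, forward strand: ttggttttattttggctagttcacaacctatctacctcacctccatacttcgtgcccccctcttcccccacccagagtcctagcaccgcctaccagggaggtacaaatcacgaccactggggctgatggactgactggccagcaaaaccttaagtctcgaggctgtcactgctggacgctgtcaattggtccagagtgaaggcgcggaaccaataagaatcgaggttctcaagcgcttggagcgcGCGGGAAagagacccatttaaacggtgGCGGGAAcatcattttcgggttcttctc
The TTTGAA of Prr11 began at base 4 after the start, that of Plk1 at base 31, and that of Ube2c, on the opposite strand, at -29. Prr11 itself was seen at 26.5 against 0.156 CPM in C1q-high cells, with 30 UMIs in 23 cycling cells and 1 UMI in the 678 others.

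Cyclins and kinases did not move as 1 group. In C1q-high cells, 13 of 18 tested were at least 2-fold higher and none lower, against 8.85% and 6.8% of all genes tested. Ccna2, the cyclin of S phase and G2, stood at 126 against 3.12 CPM (40.5-fold, 25.2 to 68.2), Cdk1, the mitotic kinase, at 224 against 7.65 CPM (29.3-fold, 21.5 to 40.7) and Ccnb1, its cyclin, at 87.5 against 3.90 CPM (22.4-fold, 14.3 to 36.3). The cyclins and kinases of G1 differed less. Cdk4 had a ratio of 2.21 (1.86 to 2.63), Cdk6 of 1.78 (1.18 to 2.63), Ccnd1 of 1.70 (1.25 to 2.28) and Ccnd3 of 1.16 (0.934 to 1.43). In T cells Ccnd2, a D-type cyclin of lymphocytes, stood at 116 CPM in cycling and 211 CPM in non-cycling cells. Of the transcription factors of the cycle, 9 of 13 were higher in C1q-high cells, against 8.85% of all genes tested. Among them were Mybl2 (15.02 against 0.468 CPM), Foxm1 (13.3 against 0.937 CPM) and E2f8 (23.9 against 2.65 CPM). E2f1 was at 44.2 against 17.8 CPM (2.48-fold, 1.74 to 3.49), a direction that reversed with each cell thinned to 2000 UMIs (log2 ratio -0.81).

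Inhibitors of the cycle split in the same cells. In C1q-high cells 4 of 14 tested were at least 2-fold higher and 3 at least 2-fold lower, against 8.85% and 6.8% of all genes tested. Cdkn2c, an inhibitor of CDK4 and CDK6, stood at 68.0 against 11.2 CPM (6.05-fold, 4.33 to 8.46), Cdkn2d, of the same family, at 105 against 33.6 CPM (3.13-fold, 2.48 to 3.94) and Rbl1, an RB-like pocket protein, at 21.2 against 5.62 CPM (3.77-fold, 2.15 to 6.50). The antiproliferative genes Btg1 (213 against 474 CPM, 2.23-fold lower, 1.95 to 2.55), Btg2 (49.5 against 162 CPM, 3.27-fold lower, 2.50 to 4.36) and Tob1 (2.28-fold lower, 1.24 to 4.67) went the other way. Cdkn1a, which encodes p21, was at 116 against 175 CPM. In MHC II-high cells Cdkn1a was at 93.5 against 242 CPM (2.59-fold lower, 1.83 to 3.78) and Btg1 2.55-fold lower (2.04 to 3.23).

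Metabolic lists differed little. Over all genes tested, 8.85% were at least 2-fold higher and 6.8% lower in C1q-high cells, and 5.66% and 8.72% in T cells. In MHC II-high cells these shares were 14.1% and 9.67%, and a single gene called in a list below is close to them. Of 15 glycolysis genes, none was at least 2-fold higher in C1q-high cells and 1 was lower (median log2 ratio 0.19), and none was called in T cells (0.25) or in MHC II-high cells (-0.08). Of 15 nuclear genes of mitochondrial respiration, none was called in C1q-high or T cells (medians 0.25 and 0.24) and 1 was higher in MHC II-high cells. Of 14 genes of MYC and ribosome biogenesis, 3 were higher and 1 lower in C1q-high cells, 1 was higher in T cells, and 6 were higher in MHC II-high cells (median 0.86). In C1q-high cells Nop58, a nucleolar protein, had a ratio of 2.80 (2.12 to 3.66), and Myc itself stood at 7.07 against 10.1 CPM. Of growth factor receptors, 4 of 12 were lower in MHC II-high cells (median -0.71), against 9.67% of all genes tested. Among them was Csf2rb, the common β chain of the GM-CSF, IL-3 and IL-5 receptors (48.2 against 129 CPM). In T cells 1 of 14 was lower, about the share of all genes tested. None of 10 was called in C1q-high cells, where Csf1r, the receptor for the macrophage growth factor CSF1, stood at 146 against 244 CPM (1.67-fold lower, 1.42 to 1.98). Il2ra and Il23r stood at 95.2 against 99.97 CPM and at 22.9 against 26.5 CPM in T cells.

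**Figure D3:**
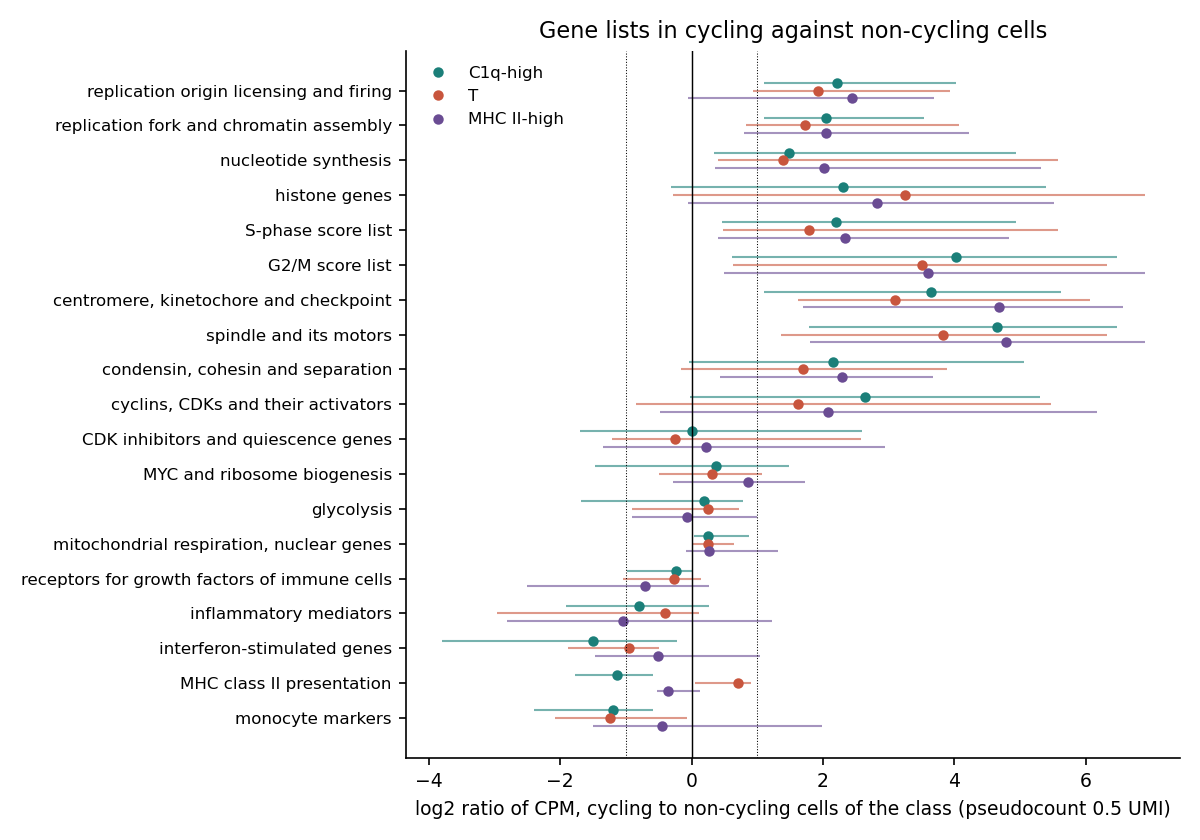
Log2 ratios of CPM, cycling to non-cycling cells, for gene lists within C1q-high, T and MHC II-high cells. Points are list medians, lines run from the lowest to the highest tested gene, and dotted lines mark 2-fold. Replication and mitosis lists lie to the right in all 3 classes, and interferon-stimulated genes have medians of -1.50, -0.95 and -0.51.

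Interferon-stimulated genes and some inflammatory genes were lower in cycling than in non-cycling C1q-high cells. Of the interferon-stimulated genes, 9 of 12 were at least 2-fold lower and none higher (median log2 ratio -1.50), against 6.8% of all genes tested. Isg15 stood at 21.2 against 79.6 CPM (3.76-fold lower, 2.50 to 5.92), Ifit3 at 4.42 against 18.7 CPM (4.24-fold lower, 1.77 to 13.3) and Irf7, the factor that amplifies interferon, at 20.3 against 56.4 CPM (2.77-fold lower, 1.82 to 4.43). Mx1 had 0 UMIs in the cycling cells and 39 in the others, at least 2.30-fold lower against a floor of 3 UMIs. Of inflammatory mediators, 6 of 18 were lower (median -0.79), among them Il10 (7.07 against 28.3 CPM), Ptgs2, which makes prostaglandins (7.95 against 26.4 CPM), Tnf (24.7 against 54.8 CPM) and Ccl8 (779 against 1896 CPM). Il1b stood at 323 against 475 CPM, and the monocyte attractant Ccl2 at 624 against 571 CPM, of which 300 of the 706 UMIs of the cycling cells were in 1 cell.

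Antigen presentation genes differed in the same direction. Of 7 MHC class II genes, which also decided the MHC II-high gate but not the C1q gate, 5 were at least 2-fold lower in the cycling C1q-high cells (median -1.14). H2-Aa stood at 824 against 1959 CPM (2.38-fold lower, 2.22 to 2.54), Cd74, the invariant chain, at 1987 against 4382 CPM (2.21-fold lower, 2.11 to 2.30) and Ciita, the class II transactivator, at 3.53 against 13.6 CPM (3.84-fold lower, 1.45 to 14.4). Per cell, the 7 genes had a median of 12.98 UMIs per 10000 in cycling C1q-high cells (4.39 to 328), 28.9 in non-cycling ones (0 to 927) and 10.5 in cycling T cells (0 to 533, with 2 of 28 at or above 100). At least 100 per 10000 were found in 6 of 56 cycling cells (10.7%) and in 213 of 678 non-cycling cells (31.4%).

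Of the monocyte genes 4 of 8 were at least 2-fold lower, against 6.8% of all genes tested. Of the macrophage genes 1 of 15 was, which is about that share. Chil3 stood at 55.7 against 294 CPM (5.29-fold lower, 4.11 to 6.91) and Ly6c2 at 28.3 against 91.7 CPM (3.24-fold lower, 2.27 to 4.78). The macrophage gene was Apoe, the lipid carrier, at 772 against 2590 CPM (3.35-fold lower, 3.13 to 3.59). Pf4 stood at 4245 against 4923 CPM and Folr2, a folate receptor of resident macrophages, at 111 against 108 CPM (1.03-fold, 0.846 to 1.25). A Folr2 or Cd163 UMI was found in 39 of 56 cycling C1q-high cells (69.6%), in 288 of 678 non-cycling ones (42.5%) and in 5 of 28 cycling T cells (17.9%), at median depths of 18796.5, 8098 and 19936.5 UMIs. Among the lowest ratios were those of Mmp13, Stx3, Ccl5, Mucl1, Gm9733, Smim24, Grasp, Abcc5 and Ifi213. Mmp13, a collagenase, and Stx3 had 0 UMIs in cycling cells, at least 3.54-fold and 3.12-fold lower. Ccl5 was at 7.07 against 117 CPM, but 374 of its 750 UMIs in non-cycling cells lay in 1 cell, and 179 of the 398 Mucl1 UMIs there also lay in a single cell.

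These differences in C1q-high cells were also read against non-cycling cells of at least 10000 UMIs, and within the clusters that held at least 10 cycling C1q-high cells, both added after the data were seen. The MHC class II median was -1.06 and -1.29 with 5 of 7 genes lower in both. The interferon median was -1.11 (6 of 11 lower) and -1.10 (5 of 10 lower). The inflammatory median moved to -0.40 and -0.42, with 3 of 18 genes lower in both, and Tnf fell below the 2-fold limit (-0.82 and -0.94). The monocyte median was -1.12 (4 of 8 lower) against deeper cells but -0.65 (3 of 8) within clusters, where Ly6c2 moved from -1.68 to -0.87. Btg1 (-0.81 and -0.76) and Tob1 (-0.79 and -0.70) were also below 2-fold in both. With the pseudocount, Mmp13 moved from -4.42 to -2.95 and -2.52 and Mx1 from -3.80 to -3.55 and -2.63. The limits given for both genes therefore hold only for the comparison with all non-cycling C1q-high cells. Stx3 moved less, from -4.24 to -4.08 and -3.94.

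**Figure D4:**
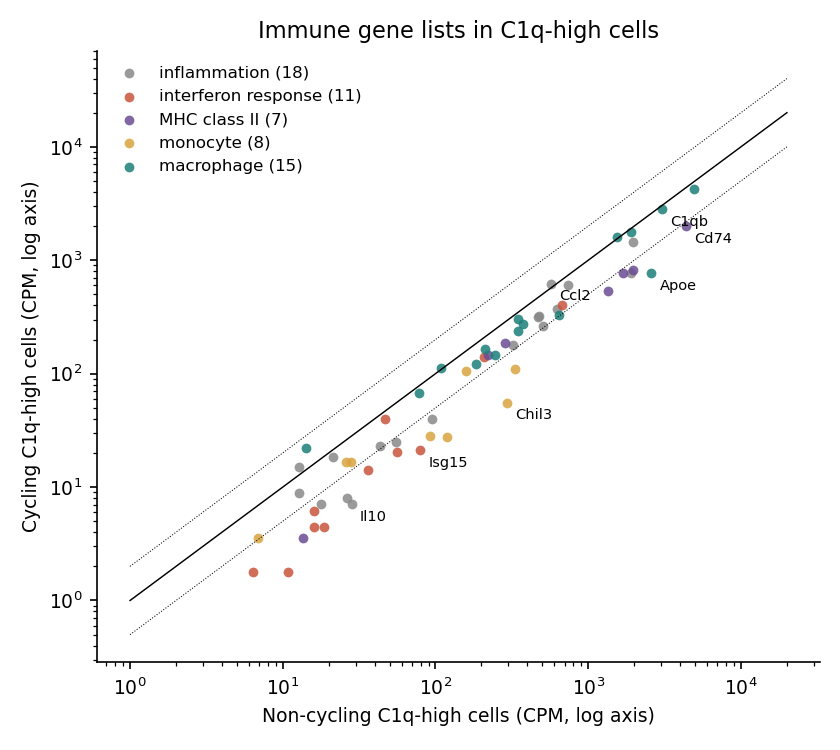
CPM of genes in cycling (vertical) against non-cycling (horizontal) C1q-high cells on log axes, for 5 lists. The solid line marks equal levels, dotted lines 2-fold, and Mx1, at 0 in cycling cells, is not drawn. Most interferon and MHC class II genes and 4 of 8 monocyte genes lie below the lower dotted line, and most macrophage genes near the solid line.

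In T cells, 3 of 5 αβ T cell genes tested and 2 of 7 regulatory T cell genes were at least 2-fold lower in the cycling cells. Over all genes tested the share was 8.72%. None of 6 γδ genes was called (median log2 ratio 0.31). Klrg1, a receptor of differentiated effector cells, had 1 UMI in cycling and 124 in non-cycling cells (35.1-fold lower in CPM, 6.19 to 1399). Cd4 stood at 5.29 against 34.0 CPM (6.42-fold lower, 2.11 to 31.9), Trac at 81.1 against 204 CPM (2.51-fold lower, 1.85 to 3.49) and Ctla4, an inhibitory receptor high in regulatory T cells, at 54.7 against 181 CPM (3.31-fold lower, 2.29 to 4.94). Trdc stood at 436 against 478 CPM (1.10-fold lower, 0.953 to 1.27). Of type 17 genes, 1 of 9 was called, close to the 8.72% of all genes. The gene was Il22, at 1300 against 2964 CPM (2.28-fold lower, 2.11 to 2.47). The other genes at the low end were Urah, BC100530, Ms4a4b, Ccl5, Cxcl1, Igkc, Wfdc21, Gm9733 and Stfa1, and 59 of the 68 Urah UMIs and 63 of the 130 Stfa1 UMIs of non-cycling cells were in 1 cell.

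These T cell differences depended on which non-cycling cells were compared. Against non-cycling T cells of at least 10000 UMIs the regulatory list median moved from -0.83 to 0.07 with none of 7 genes called, and Ctla4 from -1.71 to -0.61. Within the cluster led by Il17f and Il17a the list median was -0.36 with 2 of 7 lower, and Ctla4 stood at -2.77. On the log2 scale Klrg1 moved from -4.56 to -3.50 and -3.28 under these readings, and Cd4 from -2.47 to -1.54 and -1.90. Il22 moved from -1.19 to -1.80 and -1.46, past the 2-fold limit in both. Trac moved from -1.32 to -0.64 and -0.74, under the 2-fold limit in both, and Cd28, a co-stimulatory receptor, from -1.27 to 0.31 and -0.998. Neutrophil genes moved with this comparison, since 5 of 7 were lower in cycling T cells (median -1.64) and none was called under either reading (-0.36 and -0.13). Monocyte genes were also lower (5 of 8, median -1.24), but 2 of 6 and 3 of 7 were still lower under these readings (-0.93 and -0.95). Mast cell and basophil genes were lower in the comparison with all non-cycling T cells (5 of 7, median -1.38). In that comparison MHC class II genes had a median of 0.71 with none of 7 called. Of the 28 cycling T cells, 5 were among the highest doublet scores, the only members that were, against 31 of 265 non-cycling ones, and 2 carried at least 100 Pf4 UMIs. With the highest doublet scores left out, 395 genes were higher and 705 lower in cycling T cells, against 414 and 638 with them.

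In MHC II-high cells, the dendritic cell markers went both ways, with a median log2 ratio of 0.01. Of 11 tested, 3 were at least 2-fold higher and 3 lower, against 14.1% and 9.67% of all genes. The lower ones were Clec10a, Irf4 and Ccr7, the chemokine receptor of migrating dendritic cells, whose 8 UMIs in the cycling cells were in 1 cell. The higher ones were Zbtb46, Irf8 and Ccl17. The genes named below from the lowest ratios over all genes were chosen after they were seen, from no fixed list, so they describe no gene group. The cluster led by Apol7c, Ccl22, Fscn1, Cacnb3, Zmynd15 and Il4i1 held 0 cycling cells of 39 (exact upper limit 9.03%, or 7.69% by 3 counts). Il4i1 had 0 UMIs in the 19 cycling cells and 534 UMIs in 67 others (at least 14.7-fold lower), and Cd40, a co-stimulatory receptor, 0 against 133 UMIs (at least 3.65-fold lower). Ccl22, a chemokine of mature dendritic cells, stood at 5.67 against 136 CPM (23.9-fold lower, 6.59 to 198) and Fscn1, an actin bundler of migrating dendritic cells, at 8.50 against 146 CPM (17.2-fold lower, 5.86 to 83.6). The other genes at the low end were Plet1, Apol7c, Cacnb3, Abi3, Lgals8 and Dnah2. Of 18 inflammatory genes 9 were at least 2-fold lower and 1 higher, against 9.67% and 14.1% of all genes. At the high end Ly6d stood with the cycle genes Pclaf, Ube2c, Cdc20, Ccna2, Cdca3, Birc5, Cdk1, Hist1h2ap and Tk1. Irf8, a factor of dendritic cell development, was at 765 against 197 CPM (3.89-fold, 3.38 to 4.46) and Cd24a at 403 against 99.3 CPM (4.05-fold, 3.33 to 4.91). Single cells weighed on these sums. Of 270 Irf8 UMIs 120 were in 1 cell, of 142 Cd24a UMIs 61 were, and all 88 Ly6d UMIs were in 1 cell. Cd24a was the 1 higher gene of the 3 Langerhans cell markers tested, and the other 2 were lower (list median -2.20). Clustered without cycle genes, 10 of the 19 stayed in MHC II-high clusters and 8 fell in C1q-high ones.

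Cycling T cells were then set against cycling C1q-high cells. All 15 macrophage genes tested were at least 2-fold lower and all 10 T cell genes higher in the T cells, which the gates fix in part. Of 5970 genes, 673 (11.3%) were at least 2-fold higher in cycling T cells and 773 (12.9%) at least 2-fold lower. None of 16 origin genes was called in either direction (median log2 ratio -0.04), but 9 of 37 S-phase genes and 4 of 13 genes of nucleotide synthesis were higher in T cells, with 1 S-phase gene lower. Of 24 kinetochore genes 3 were lower in T cells, close to the 12.9% of all genes. Of 15 histone genes 5 were higher, against 11.3% of all genes, such as Hist1h1b, a linker histone (88.2 against 31.8 CPM, 2.77-fold, 1.77 to 4.38). Ccnd2 was at 116 against 4.42 CPM (26.4-fold, 10.7 to 83.8). At the high end were Actn2 (142 against 0 UMIs, at least 94.5-fold), Cd247, Il17a, Cxcr6, Il17f, Ptprcap, Skap1, Cd163l1, Lat and Tcrg-C1, all but Actn2 known lymphocyte genes. At the low end were Gatm, Stard8, Fcrls, Cd36, Lpl, Cx3cr1, Cxcl13, Cd300e, Eps8 and Slc13a3. Lpl stood at 5.29 against 290 CPM, and 229 of the 349 Cxcl13 UMIs of C1q-high cells were in 1 cell.

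The members differed in the balance of S and G2/M genes. With each cell thinned to 4000 UMIs, 4 of the 124 were too shallow, and the other 120 had a median of 8 S-phase UMIs (0 to 34) and 24 G2/M UMIs (2 to 74). The 2651 non-cycling cells of that depth had medians of 1 and 4, and the 359 cells with 1 or 2 Mki67 or Top2a UMIs had 2 and 5. More G2/M than S UMIs were found in 101 of 120 members (84.2%) but also in 78.1% of non-cycling cells, so the share is no measure of phase by itself. In C1q-high members the S and G2/M sums ran against each other (Pearson's r = -0.47 over 56 cells of 1 library at equal depth), and 21 of 56 had fewer than 5 S-phase UMIs. Over 20 random draws of the thinning, a check added after the data were seen, that r lay between -0.59 and -0.38. In T members r had the opposite sign, at 0.24 (0.01 to 0.24 over the draws). It was -0.29 in MHC II-high members, -0.08 in members that met no gate and -0.22 in all 120 members. T members had a median of 10 S-phase UMIs (9 to 12.5 over the draws) against 7 (6 to 8) in C1q-high members. Their G2/M medians were 25 (20 to 25.5) and 23.5 (20.5 to 26). In all, 5 of the 120 members had fewer than 5 G2/M UMIs, a list related to the genes of the rule.

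**Figure D5:**
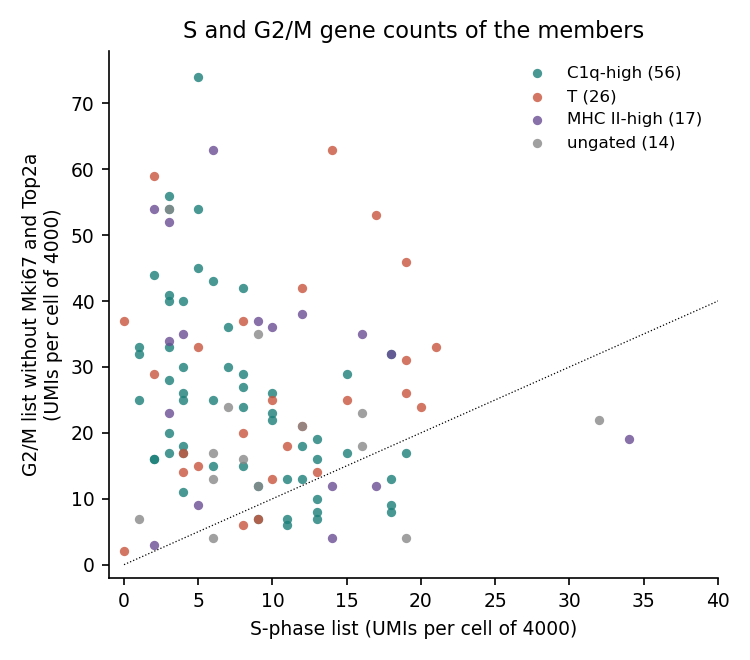
S-phase list UMIs (horizontal) against G2/M list UMIs without Mki67 and Top2a (vertical) in each member of the 4 largest classes, every cell thinned to 4000 UMIs. The dotted line marks equal counts. The C1q-high member with the most G2/M UMIs, 74, has 5 S-phase UMIs, and 1 T member has 19 S-phase and 46 G2/M UMIs.

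The rule could not pick out immune cells in the epidermal library. Of its 4173 cells within the quality limits, 1233 had at least 2 UMIs of Ptprc, Tyrobp and Cd3e, but 1229 of these were at or above the limit of 20 Krt5 and Krt14 UMIs per 10000, and the lowest of all 4173 cells had 11.2. The 4 cells left included no cycling cell, which says nothing of whether epidermal immune cells cycled. The 2214 cycling epidermal cells, all at or above the keratin limit and at a median of 35843.5 UMIs, included 351 with the immune UMIs. They are set beside the members without a test because tissue, sort and depth differ. The S-phase list stood at 2319 CPM in the members and 2348 CPM in the epidermal cells, the G2/M list at 6387 and 6318 CPM, the origin list at 913 and 829 CPM and the kinetochore list at 1848 and 1734 CPM. Spindle genes stood at 5059 and 3404 CPM. In non-cycling immune cells of the dermis these 5 lists were at 428, 1115, 156, 134 and 804 CPM.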

How the data were processed

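Single-cell RNA-seq was measured in 1 dermal and 1 epidermal library (10x Chromium 3′ v3 per the labels). The authors deposited UMI counts per gene and cell, not normalized, as unfiltered cell-called matrices whose header names CellRanger 3.0.2, and the submitters' processing notes name CASAVA, Cell Ranger and mm10. The annotation release is not given in the sources used here. Counts were read as deposited, with Python 3.11.15, SciPy 1.17.1 and scanpy 1.11.5, and groups came from the labels.

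Classes were set in this order per 10000 UMIs: endothelial (at least 8, and 3 UMIs), NK (5, and 2 UMIs), T (3, and 2 UMIs), mast cell or basophil (10), neutrophil (200), C1q-high (15), monocyte (20) and MHC II-high (100). UMIs were summed per group and compared as CPM with exact conditional 95% intervals, shares have Clopper-Pearson intervals, and a count of 0 was given a floor of 3 UMIs. Thinning drew UMIs without replacement. Clusters used 2000 variable genes, 20 components and Leiden resolution 1, without the listed cell-cycle genes, Mki67, Top2a and histone genes. Doublets were not removed; the highest Scrublet scores, 0.8% per 1000 cells, were left out as an alternative. Members, lists and gates were chosen with earlier results of these data known. Named genes were the markers, the list members and, among genes with at least 50 UMIs, the 10 highest and 10 lowest ratios per comparison without gate, ribosomal, mitochondrial and receptor segment genes, of which 1 is not reported here; the MHC II-high genes named and the single cells singled out were chosen after their values were seen. The method was tested on simulated data, drawn without spread between cells. Cells of 1 library are not replicates, so no p-value is given.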

Additional observations from a re-analysis of the deposited data

How the results depend on the processing

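No paired analysis was possible because a single library was made from dermis and a single one from epidermis. Of 138 alternative values for counts, shares and phases, 101 stayed within 1.5 times the count or within the interval. The cycling threshold set the number of members, 191 at 2 UMIs and 74 at 5 UMIs. At 2 UMIs the share was 4.60% in all, 9.43% in C1q-high, 11.5% in T and 5.96% in MHC II-high cells. At 5 UMIs it was 1.78% in all and 3.14% in C1q-high cells. With 3 UMIs asked after thinning to 2000 UMIs the shares were 0.208%, 0.241%, 0.885% and 0.405%, and to 1000 UMIs 0.0739%, 0, 0.565% and 0.2%, in the same order. With 1 UMI at 2000 it was 4.09% in all. By cluster, C1q-high cells made up 61.3% and MHC II-high cells 8.87% of members.

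Counts of genes at least 2-fold higher and lower followed the minimum. At 50 UMIs they were 464 and 374 in C1q-high, 172 and 240 in T, and 598 and 424 in MHC II-high cells. With no minimum they were 2067 and 1110 in C1q-high and 1907 and 1502 in T cells, and 4704 higher in MHC II-high cells and 4915 higher over all classes. Genes lower in T cells numbered 1008 by mean per-cell CPM and 374 after thinning. They numbered 186 against non-cycling cells of at least 10000 UMIs (369 higher) and 372 within the cluster led by Il17f and Il17a (379 higher). Over all classes 770 were lower against cells of that depth, and 755 were higher in MHC II-high cells after thinning. Of 504 list medians, 16 left the range of the list's own genes.

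Of 1593 single-gene values 238 left their counting interval and 8 reversed. After thinning, the log2 ratio of Mcpt1 over all classes became 3.17, of E2f1 in C1q-high cells -0.81, of Stfa1 in T cells 0.27 and of Epcam in MHC II-high cells 0.62. Against deeper cells, Klra4 over all classes became 0.085 and Cd28 in T cells 0.31. Within the cluster led by Il17f and Il17a, BC100530 became 0.63 and Stfa1 0.53. The causes were not tested. No group had enough samples to look for outlying libraries.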
